A study of Mus musculus with 4 samples.

Results

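Transcripts of 32 proteins that the liver secretes into blood plasma were followed in RNA from embryonic mouse kidneys. The list was drawn up by name, and 30 of its 32 genes were found on the array by a probe set annotated to exactly 1 gene symbol. They are 30 of 18193 genes so represented. Each gene is given by 1 probe set, the one with the highest mean signal over the 4 pools. Gc and C3 were not analysed here. The series compared kidneys of C57BL/6 embryos, labelled female, at embryonic day 15. Their C57BL/6 mothers, 8 weeks of age, were fed food holding 220 ppm iron (control) or a synthetic food holding 2 to 6 ppm (iron-deficient), from 3 weeks ahead of mating until the embryos were taken. Kidneys were combined in batches of 16, giving 2 control pools and 2 iron-deficient pools, here called low-iron pools 1 and 2, with 1 Affymetrix mouse genome array for each. Separate litters are not stated in the labels, so p-values reflect variation among these 4 pools alone, and that variation could be technical.

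Hepatocytes make most plasma proteins, among them albumin, the apolipoproteins, the clotting factors and their inhibitors, and carriers of vitamins, haem and hormones. Their genes share a set of liver-enriched transcription factors, including HNF1, HNF4 and C/EBP proteins, some of which are also active in the proximal tubule of the kidney. In the fetus the same programme runs in hepatoblasts of the liver and in the visceral yolk sac, with alpha-fetoprotein as the leading carrier before albumin takes over. The embryonic kidney lies close to the liver, adrenal gland and body-wall muscle, and some plasma protein genes are also transcribed in renal tubules.

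The measurements are linear array signals without replicates inside a pool, and the number of arrays limits their precision. The background of an array was taken as the highest of 27 probe sets for bacterial genes that were not spiked, and it was 8.5 and 8.2 in control pools 1 and 2 and 14.4 and 13.3 in low-iron pools 1 and 2. Between 63.3% and 74.4% of probe sets lay above it. All 18 kidney-defining genes examined were above background in all 4 pools. Their summed signals ranged from 13251 to 13889, of which Calb1 alone gave 2296.4 to 3128.7. Single genes were less even. Both low-iron pools were above both control pools for 4 of the 18, Wt1, Sall1 and Foxd1 among them, and below for 5. Of the latter, Slc12a1 read 867.4 and 715.1 in controls 1 and 2 against 182.5 and 313.5 in low-iron pools 1 and 2. Umod read 104 and 111 against 14.8 and 29.3. The array of low-iron pool 1 stood apart. Its log2 signals correlated with those of the other arrays at 0.883 to 0.913 across tested probe sets, which are not independent replicates, whereas the other arrays correlated at 0.970 to 0.978 among themselves. Its 5′ probe set for 18S ribosomal RNA read 2144.5, against 243 to 291.9 on the other arrays. Y-linked signals went against the female label in 3 of the 4 pools. Kdm5d read 117.7 and 93.8 in controls 1 and 2 and 64.2 in low-iron pool 1, and Uty 51.2, 62.1 and 38.2, while neither was above background in low-iron pool 2 (3.1 and 0.6). Eif2s3y read 594.5 and 600.0 in controls 1 and 2, 253.6 in low-iron pool 1 and 20.8 in low-iron pool 2, while the X-inactivation transcript Xist read 926.6 and 167.8, then 3427.3 and 1543.3. Whether these differences bear on the members was not tested. Results are therefore given pool by pool.

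The starts of these genes were searched for letters bound by liver-enriched factors. RefSeq windows of the GRCm38.p6 build, covering 250 bases upstream of a gene start, were at hand for 25 of the 30 genes (28 windows, as 3 genes have 2 starts). The 13-letter HNF1 consensus, with up to 2 mismatches and on either strand, occurred upstream of 5 of the 25 genes (Afp, Alb, Apom, Fga and Fgb), or in 17.9% of their windows against 1.24% of all 32851 windows. The shorter core GTTAAT, which lies within that consensus, occurred upstream of 6 of them (21.4% of windows, against 6.43% of all windows). The 13-letter HNF4 direct repeat, with up to 2 mismatches, occurred upstream of Apoa2 and Itih4 (7.14% against 3.24%). Neither the HNF4 form CAAAGTCCA nor the C/EBP letters TTGCGCAA or TTGCGAAA occurred in the members' windows. TATAAA occurred upstream of 6 members (21.4% of windows, against 12.4%). These counts describe letters in a window and not binding. The list was drawn up from liver genes, and whether the letters bear on differences between pools was not tested. Printed here, 5′ to 3′ on the gene's strand, are the windows of Alb, Afp and Fgb, which differed in sign between the low-iron pools, and of Apom and Serpinf2, which were lower in both. Capitals mark the HNF1 matches, and the window of Serpinf2 holds none. Alb lies at chr5:90460620-90460869 on the plus strand, Afp at chr5:90490464-90490713 on the plus strand, Fgb at chr3:83049864-83050113 on the minus strand, Apom at chr17:35131802-35132051 on the minus strand and Serpinf2 at chr11:75439502-75439751 on the minus strand, all as sequence upstream of the annotated start.
Alb: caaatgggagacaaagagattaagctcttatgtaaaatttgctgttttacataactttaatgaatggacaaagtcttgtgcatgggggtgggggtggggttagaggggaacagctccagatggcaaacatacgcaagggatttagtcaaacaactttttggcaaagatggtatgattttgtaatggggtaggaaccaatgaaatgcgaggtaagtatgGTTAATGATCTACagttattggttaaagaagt
Afp: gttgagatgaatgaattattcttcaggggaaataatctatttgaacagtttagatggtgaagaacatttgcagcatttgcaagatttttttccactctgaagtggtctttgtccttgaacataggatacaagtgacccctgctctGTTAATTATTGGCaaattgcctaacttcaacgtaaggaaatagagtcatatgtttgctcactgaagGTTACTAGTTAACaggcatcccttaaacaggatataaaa
Fgb: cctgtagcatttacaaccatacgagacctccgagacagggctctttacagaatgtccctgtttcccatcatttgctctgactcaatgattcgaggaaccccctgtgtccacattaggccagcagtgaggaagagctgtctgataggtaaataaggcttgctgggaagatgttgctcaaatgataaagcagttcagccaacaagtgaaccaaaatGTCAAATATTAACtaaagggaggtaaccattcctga
Apom: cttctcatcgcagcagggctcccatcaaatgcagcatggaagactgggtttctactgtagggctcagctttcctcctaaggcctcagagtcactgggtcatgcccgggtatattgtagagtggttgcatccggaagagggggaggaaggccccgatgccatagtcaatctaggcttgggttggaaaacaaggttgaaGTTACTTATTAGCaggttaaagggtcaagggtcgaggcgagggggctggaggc
Serpinf2: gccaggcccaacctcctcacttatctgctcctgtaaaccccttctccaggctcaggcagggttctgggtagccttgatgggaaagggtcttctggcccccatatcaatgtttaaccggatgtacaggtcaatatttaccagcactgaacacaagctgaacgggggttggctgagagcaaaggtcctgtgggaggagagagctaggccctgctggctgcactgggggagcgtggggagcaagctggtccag

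Many of these transcripts were highest in low-iron pool 2. Because signals under background bear no order, pools were compared after every signal under 14.4, the highest background of the 4 arrays, was raised to it. On that scale low-iron pool 2 exceeded both control pools for 21 of 30 genes, against 28.9% of all 18193 genes. Low-iron pool 1 was under both control pools for 13 of 30, a share near the 44.0% of all genes. Both held at once for 9 genes (Alb, Afp, Ttr, Rbp4, Ambp, Apoa2, Fga, Fgb and Itih2), against 15.3% of all genes, and the opposite arrangement for 0 of 30, against 7.32%. By the signals as deposited, 18 of 30 had low-iron pool 1 lowest and pool 2 highest (17.5% of all genes), so the other 9 of these rest on order under background. By the probe set used for each gene, Serpinc1 was the only member above both control pools in both low-iron pools. That is 1 of 30, against 9.9% of all genes. Hp, Apom, Kng1 and Serpinf2 were below both control pools in both low-iron pools, 4 of 30 against 19.3% of all genes.

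**Figure D1:**
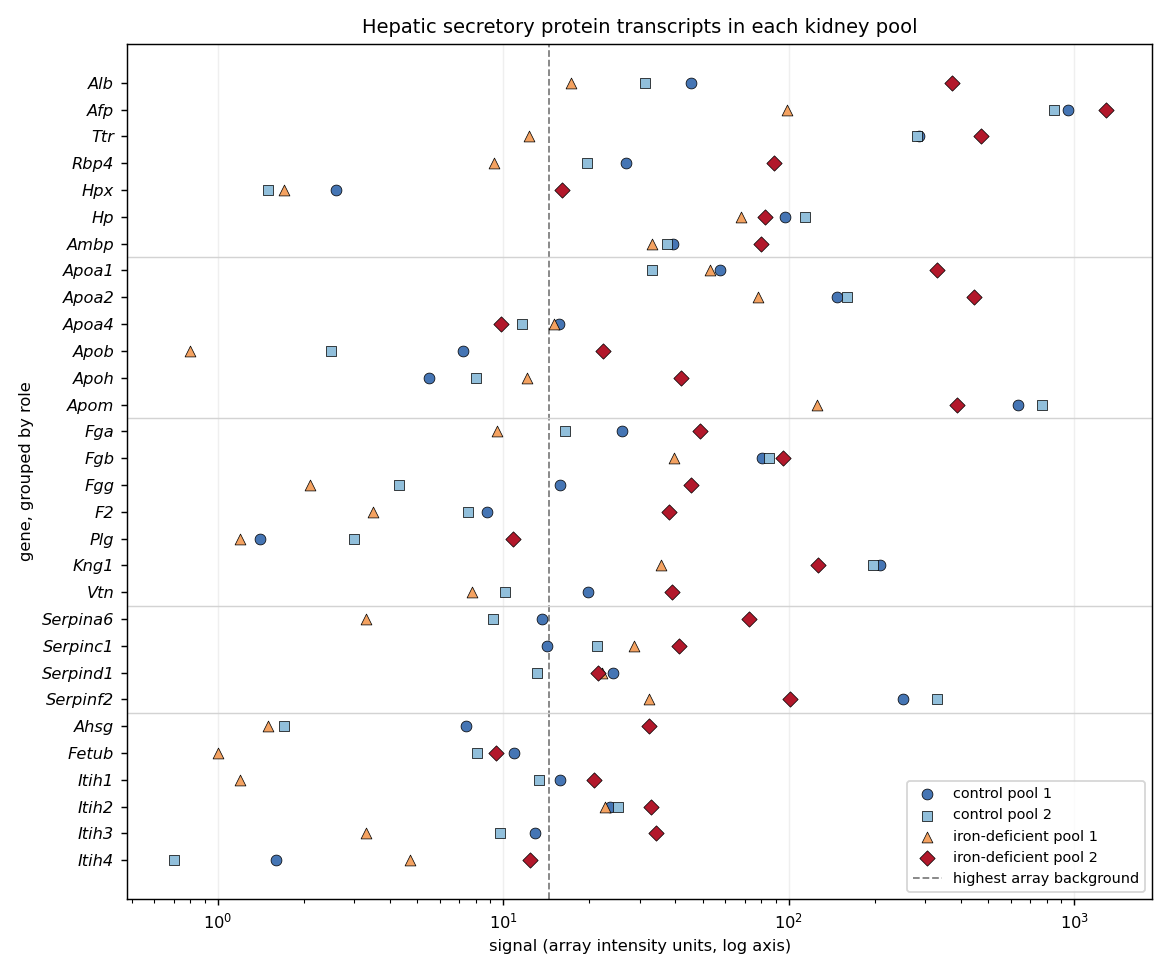
Signal of each of the 30 genes in the 4 pools (log axis, array intensity units), with 1 symbol per pool and genes grouped by role; the dashed line is the highest array background, 14.4. With signals under that line raised to it, iron-deficient pool 2 exceeds both control pools for 21 genes, and iron-deficient pool 1 is below both for 13.

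On the same scale low-iron pool 2 was at least 2-fold over low-iron pool 1 for 19 of 30 members, against 11.3% of all genes, and the reverse held for 0 of 30, against 4.97%. The control pools were at least 2-fold apart for 0 of 30 members and for 0.632% of all genes. The median log2 difference of the 30 members was 1.33 between low-iron pools 2 and 1 and 0.00 between control pools 2 and 1. Over all genes both were 0.00, where many genes sit at the raised value. For the 13 members above background in all 4 pools these medians were 1.63 and 0.09, beside 0.32 and -0.02 over the 12808 genes so measured. Ttr, Alb and Afp ranked 1, 2 and 4 among all 18193 genes by this difference. Apoa1, Rbp4, Apoa2 and Serpina6 ranked 18, 19, 24 and 32. Among the 13 members above background in all 4 pools, 6 were below the control pools in low-iron pool 1 and above them in pool 2, against 21.1% of the same 12808 genes, and 9 were at least 2-fold higher in pool 2 than in pool 1, against 15.2%. Each of these differences compares single arrays and has no replicate check. In such tissue RNA, fewer cells of a type and less RNA per cell cannot be told apart.

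**Figure D2:**
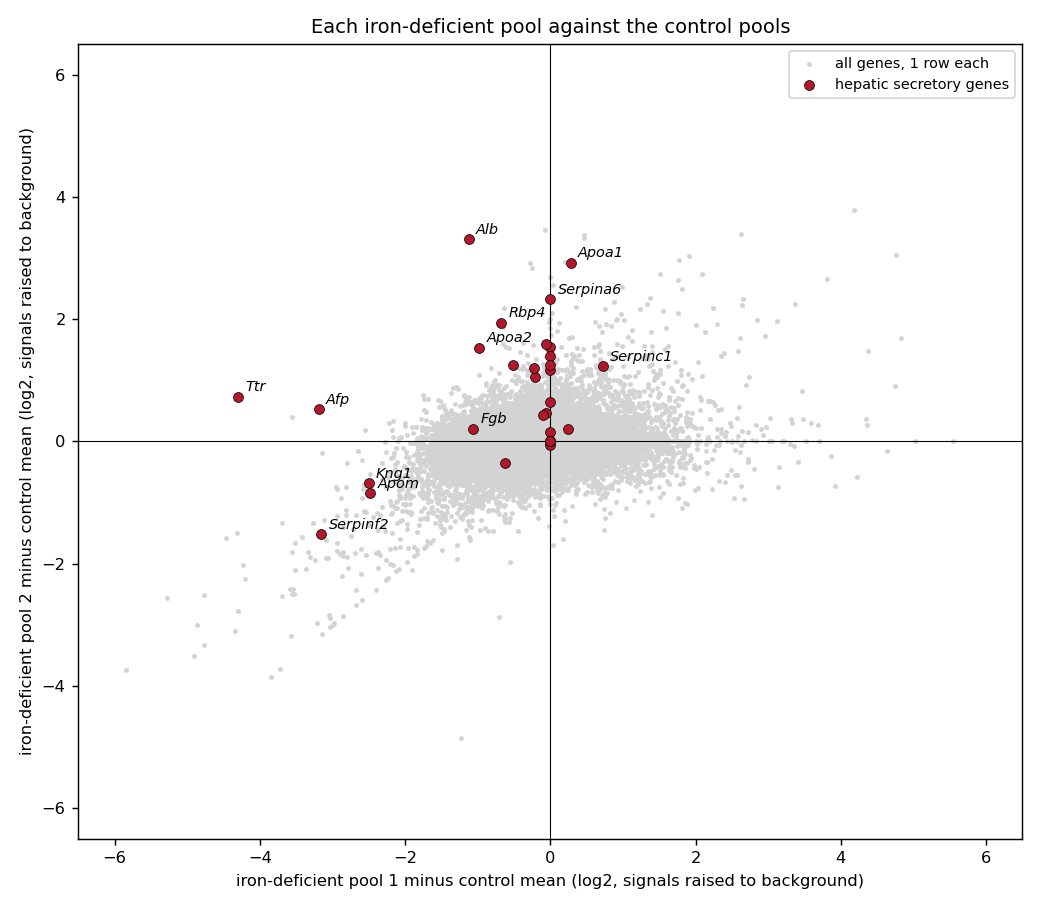
Log2 difference from the control mean in iron-deficient pool 1 (horizontal) and iron-deficient pool 2 (vertical), for all 18193 genes (grey) and the 30 hepatic secretory genes (red), after signals under 14.4 were raised to it. Ttr and Afp lie far to the left and above 0, Alb and Apoa1 lie high, and Apom, Kng1 and Serpinf2 lie below 0 on both axes.

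Among carrier proteins the gap between pools was widest. Albumin, the main carrier and osmotic protein of adult plasma, had Alb signals of 45.3 and 31.4 in control pools 1 and 2, 17.3 in low-iron pool 1 and 372.6 in low-iron pool 2. The last value was 21.5-fold that of its partner pool, and 3.30 log2 units above the control mean. Alpha-fetoprotein, the fetal counterpart of albumin, had Afp signals of 948.5 and 846.4 in controls 1 and 2, 98.3 in low-iron pool 1 and 1289.6 in low-iron pool 2. Against the control mean, Afp therefore stood at -3.19 in pool 1 and 0.53 in pool 2, whereas Alb stood at -1.12 and 3.30 on the same log2 scale. Transthyretin, which carries thyroxine and the retinol-binding protein, had Ttr signals of 286.7 and 282.3 in controls 1 and 2, 12.3 in low-iron pool 1 and 472.7 in pool 2. Since the 12.3 was not above background, pool 2 was at least 32.8-fold higher than pool 1. Rbp4, the retinol carrier that travels bound to transthyretin, read 27.0 and 19.6 in control pools, 9.3 in low-iron pool 1 and 88.4 in pool 2, at least 6.14-fold apart. Ambp, whose precursor yields alpha-1-microglobulin and bikunin, read 39.4 and 37.3 against 33.1 and 79.8. All of these 5 carriers were lowest in low-iron pool 1 and highest in low-iron pool 2.

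Carriers of free haem and haemoglobin were read as well. Hpx, which binds haem, was above background only in low-iron pool 2, at 16.0, with 2.6, 1.5 and 1.7 elsewhere. Hp, the haemoglobin-binding haptoglobin, read 96.6 and 113.9 in controls 1 and 2, against 68.1 and 82.5 in low-iron pools 1 and 2. Hp was thus lower in both low-iron pools, with a log2 difference of -0.48 ± 0.33 (SE, n = 2 pools per diet), and its low-iron pools differed by only 1.21-fold.

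Apolipoproteins, the protein part of circulating lipoproteins, held both patterns. Apoa1, the main protein of high-density lipoprotein, read 57.4 and 33.1 in control pools, 52.9 in low-iron pool 1 and 329.9 in pool 2. By this probe set low-iron pool 1 lay between the control pools, so that the high signal was confined to pool 2 among these 4. Apoa2, a second protein of high-density lipoprotein, read 147.6 and 160.0 in control pools, 78.1 in low-iron pool 1 and 444.0 in pool 2, a 5.69-fold gap between the latter. Apoh, which binds phospholipids, was above background only in low-iron pool 2, at 42.0, and Apob, the structural protein of very-low-density lipoprotein, likewise, at 22.4. Apoa4 ranged from 9.8 to 15.7 and was near background in every pool. Apom, a carrier of sphingosine-1-phosphate that proximal tubules also make, read 635.3 and 771.8 in control pools, 125.7 in low-iron pool 1 and 388.3 in pool 2. Both low-iron pools were below both control pools here, while pool 2 was still 3.09-fold higher than pool 1.

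Genes of clotting and fibrinolysis were dim and mostly highest in low-iron pool 2. The chains of fibrinogen, the precursor of the fibrin clot, are encoded by Fga, Fgb and Fgg. Fgb read 80.6 and 85.5 in control pools, 39.7 in low-iron pool 1 and 95.7 in pool 2. Fga read 26 and 16.4 against 9.5 and 49.0, and Fgg 15.8 and 4.3 against 2.1 and 45.5. All of the fibrinogen genes were highest in low-iron pool 2, and Fga and Fgg were not above background in low-iron pool 1. F2, which encodes prothrombin, read 8.8 and 7.5 against 3.5 and 38.0, and Vtn, the adhesive plasma protein vitronectin, 19.8 and 10.1 against 7.8 and 39.0. A second Vtn probe set, above background in all 4 pools, went the other way between the low-iron pools, at 13.5 and 14.1 against 18.2 and 15.1. Plg, the zymogen of plasmin, stayed below background in all 4 pools, at 10.8 or less. Kng1, the kininogen from which bradykinin is released, went with Apom: it read 209.0 and 197.4 in control pools and 35.8 and 126.6 in low-iron pools.

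The 4 serpins, plasma inhibitors of proteases or relatives of them, differed from one another. Serpina6, the corticosteroid-binding globulin, read 13.7 and 9.2 in control pools, 3.3 in low-iron pool 1 and 72.4 in pool 2, where it was at least 5.03-fold higher than in pool 1. Serpinc1, or antithrombin, was higher in both low-iron pools, at 28.8 and 41.2 against 14.2 and 21.3. Serpind1, heparin cofactor II, showed no separation, at 24.2 and 13.1 against 22.1 and 21.4. Serpinf2, the plasmin inhibitor alpha-2-antiplasmin, read 252.0 and 329.9 in control pools and 32.4 and 100.6 in low-iron pools. It was therefore lower in both low-iron pools, with pool 2 above pool 1 by 3.10-fold.

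Fetuins and the heavy chains of inter-alpha-trypsin inhibitor, which bind hyaluronan in extracellular matrix, were close to background. Ahsg, fetuin-A, an inhibitor of mineral deposition, was above background only in low-iron pool 2, at 32.5, with 7.4, 1.7 and 1.5 elsewhere. Itih3 read 12.9 and 9.7 against 3.3 and 34.4, and Itih2, the only gene of this group bright enough to be tested, 23.7 and 25.3 against 22.8 and 32.9. Itih1 read 15.8 and 13.3 against 1.2 and 20.8. Fetub lay above background only in control pool 1, at 10.9, and Itih4 in no pool. Low-iron pool 2 thus held the highest signal for the 4 genes Ahsg, Itih1, Itih2 and Itih3.

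The comparison of diets asked whether these transcripts differ between embryos of iron-deficient and control dams. Of the 30 genes, 16 were bright enough to be tested, and of these 0 passed by limma at a Benjamini-Hochberg adjusted p of 0.05, as did 0.0% of all 27022 tested probe sets. The other 14 were under the filter on mean signal and were not tested. At an unadjusted p under 0.05, 3 of the 16 were lower in the low-iron pools (2.81% of all tested probe sets) and 1 was higher (1.14%). The lower ones were Serpinf2 (log2 difference -2.34 ± 0.59, SE), Apom (-1.66 ± 0.59) and Kng1 (-1.59 ± 0.63), each with a limma adjusted p of 0.852. The higher one was Serpinc1 (0.99 ± 0.39, limma adjusted p = 0.852). In each of these 4 genes the pools of the diets did not overlap. With signals raised to background, both low-iron pools lay above both control pools in 9.9% of all genes. They lay below both in 19.3%. As the 4 were picked by p, the lack of overlap is not separate support. The limma standard errors of Ttr, Alb, Afp and Rbp4 were 1.62, 1.38, 1.16 and 1.04, larger than those of the 4 genes just named. Their log2 differences between diets were -1.90, 1.09, -1.33 and 0.32, with limma adjusted p of 0.852, 0.862, 0.852 and 0.939. Ttr and Rbp4 were not above background in low-iron pool 1, and with signals raised to background their differences were -1.79 and 0.63.

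**Figure D3:**
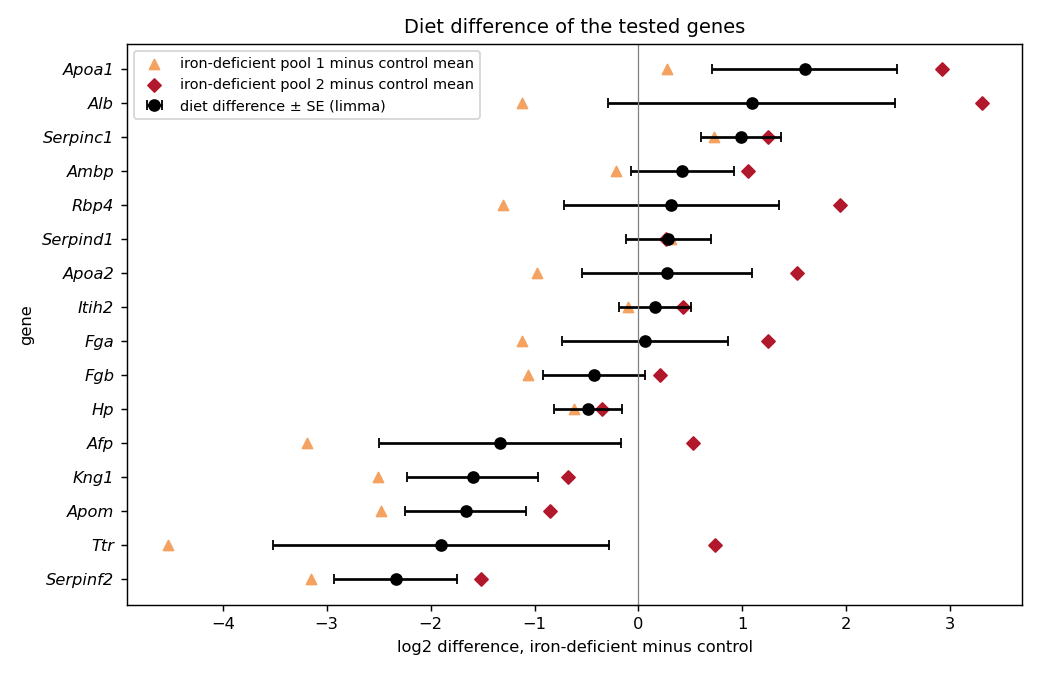
Log2 difference between iron-deficient and control pools for the 16 tested genes: black points are limma estimates with SE (n = 2 pools per diet), and coloured symbols give each iron-deficient pool against the control mean. For Alb, Rbp4, Apoa2, Fga, Afp, Ttr, Ambp, Fgb and Itih2 the coloured symbols lie on opposite sides of 0. For Serpinf2, Apom, Kng1 and Hp both lie below 0, and for Apoa1, Serpinc1 and Serpind1 both lie above 0.

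The median log2 difference between diets was 0.11 over the 16 tested genes, beside -0.10 over all tested probe sets. It was 0.63 without low-iron pool 1, the array that stood apart, and -1.09 without low-iron pool 2, so the side of 0 depended on the pool left out. Without low-iron pool 1, Alb differed by 3.30, Apoa1 by 2.92, Rbp4 by 1.94 and Apoa2 by 1.53, while Serpinf2, Apom and Kng1 still differed by -1.52, -0.85 and -0.68. None of these passed by limma (smallest adjusted p over the 16 genes 0.493), in a fit whose spread comes from the 2 control pools alone and which assumes that the lone low-iron array varies like them. With signals raised to background, the gap between the low-iron pools exceeded the gap between diet means for 22 of 30 members, against 57.4% of all genes. For the 13 members above background in all pools it did so for 8, against 74.3%, so this measure does not set the brighter members apart.

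Several genes were read by more than 1 probe set, 9 of the 30 in all. The 3 Afp probe sets bright enough to be tested read 98.3, 67.2 and 70.8 in low-iron pool 1, where all were lowest. In low-iron pool 2 they read 1289.6, 738.3 and 605.7. The 738.3 lay between its control pools, at 619.2 and 742.7. Log2 differences between diets were -1.33, -1.61 and -0.08 for these probe sets. The other 2 Afp probe sets were at 25.7 or less in every pool. The brighter of them read 1.8 and 8.7 in control pools against 25.7 and 6.5 in low-iron pools 1 and 2. All 4 Ttr probe sets were lowest in low-iron pool 1, at 12.3 to 18.2, and highest in low-iron pool 2, at 143.6 to 472.7. The 4 Apoa1 probe sets read 232.8 to 329.9 in low-iron pool 2 and 33.5 to 56.1 in pool 1. One of them read 47.8 and 21.3 in control pools against 56.1 in low-iron pool 1, and another 41.9 and 30.3 against 51.8. By these, unlike the probe set used above, low-iron pool 1 also exceeded both control pools. The second Apom probe set read 377.5 and 379.7 in control pools and 56.1 and 139.7 in low-iron pools, the same order as the first. Some of these probe sets share sequence and all share the same RNA, so they are not independent. Of the genes with several tested probe sets, 0 had tested probe sets that differed in sign. Among dimmer, untested probe sets, the 2 of Vtn, given above, differed in sign between the low-iron pools. The Afp probe set at 25.7 and 6.5 went against the tested Afp probe sets.

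**Figure D4:**
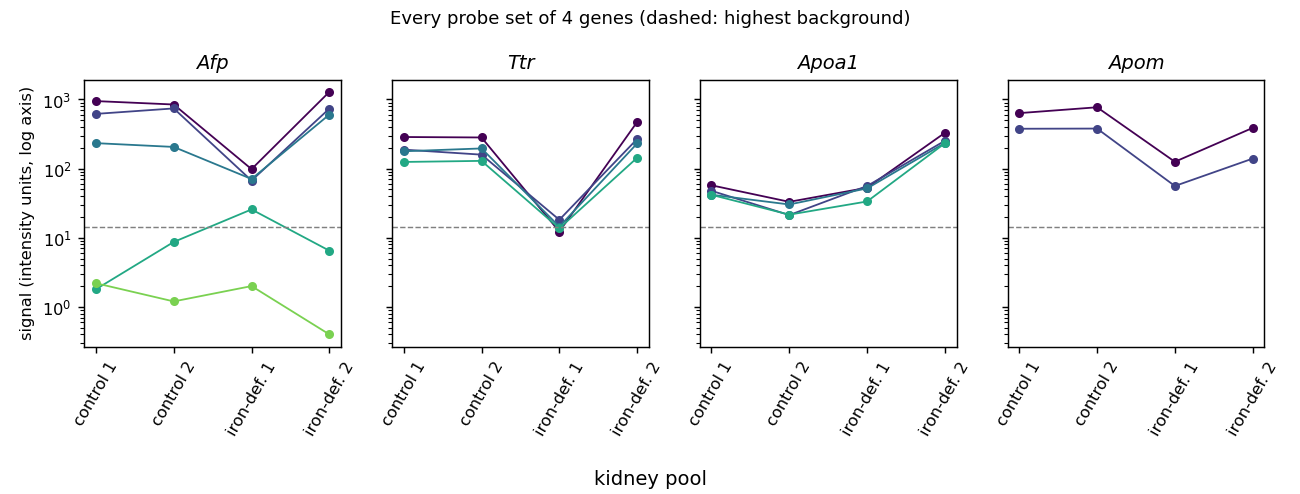
Signals of every probe set of Afp, Ttr, Apoa1 and Apom in the 4 pools (log axis, array intensity units), 1 line per probe set; the dashed line is the highest array background, 14.4. The bright probe sets of a gene share their lowest pool, and 2 Afp probe sets lie near or below background.

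Many other liver genes were under background and could not be ordered. Of 41 further secreted hepatic proteins, 17 were below background in all pools and 14 were bright enough to be tested. Low-iron pool 2 exceeded pool 1 for 11 of these 14, with a median log2 difference of 0.30 on raised signals. For the tested members these were 15 of 16 and 1.70. Over all tested genes taken once each they were 8494 of 12992 and 0.33. Spp2, a secreted phosphoprotein, read 1027.0 and 981.2 in control pools and 25.9 and 170.2 in low-iron pools, lower in both (log2 difference -3.92 ± 0.88, SE). Of 23 genes of hepatocyte metabolism, 10 were above background in low-iron pool 2, 11 in pool 1 and 15 and 11 in control pools 1 and 2. All 8 that were tested were higher in low-iron pool 2 than in pool 1, beside 8494 of 12992 tested genes. The median log2 difference of the 8 was 0.70. The urea cycle genes Cps1 and Otc, the tyrosine aminotransferase Tat and the cytochromes Cyp7a1 and Cyp2e1 were not above background in either low-iron pool. Others of the list were above background in all 4 pools. They included Arg1, also of the urea cycle (31.7 and 49.6 against 24.1 and 46.2), and Tdo2 (15.2 and 16.4 against 21.8 and 15.6). The receptor Asgr1 (57.9 and 80.6 against 31.3 and 77.5) and the lipid transfer gene Mttp (52.2 and 55.3 against 21.0 and 74.1) were among these 8. The list's summed signal was 1909 and 2105 in control pools, 2252 in low-iron pool 1 and 3854 in pool 2. Most of the latter came from Dlk1, a gene of hepatoblasts that other embryonic tissues also express. Dlk1 read 959.3 and 1121.0 in control pools against 1637.5 and 3045.0, so the high sum in pool 2 largely followed this gene. The list's median signal, near background, was 11.7 and 6.9 in control pools, 11.9 in low-iron pool 1 and 11.6 in pool 2. Of 9 tested transcription factors of hepatocytes, 3 were higher in low-iron pool 2 than in pool 1, against the same 8494 of 12992. Hnf4a, shared by liver and proximal tubule, read 1850.2 and 1968.9 against 990.2 and 1157.0, and Cebpa 251.0 and 245.9 against 78.8 and 207.4. Both are among those 3. Foxa3 (18.6 and 20.9 against 92.7 and 30.9) and Cebpb (25.2 and 28.9 against 74 and 39.1) were highest in low-iron pool 1. So were Zbtb20 (535.4 and 371 against 688.7 and 344.8) and Zhx2 (262.6 and 271.2 against 384.7 and 211.1). Foxa2 and Onecut1 were below background in every pool.

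Markers of neighbouring and blood cell types differed between these pools as well, and their part in the members' values was not tested. The summed signal of 15 skeletal muscle genes was 649 and 489 in control pools, 594 in low-iron pool 1 and 2998 in pool 2, and 13, 11, 12 and 13 of them were above background. Their median log2 difference between low-iron pools 2 and 1 was 1.86, beside 1.33 for the members. Mylpf, a myosin light chain of fast muscle, read 193.0 and 136.8 against 136.5 and 1161.7. Erythroid genes, which fetal liver expresses strongly, summed to 3246 and 3579 in control pools and 9942 and 7060 in low-iron pools 1 and 2, and granulocyte genes to 590 and 597 against 2686 and 1939. Of the 18 erythroid genes 15, 15, 16 and 16 were above background in the 4 pools, and of the 12 granulocyte genes 8, 7, 11 and 11. Hbb-y, an embryonic globin, gave 6816.4 of the erythroid sum in low-iron pool 1, and 9 of the 18 erythroid genes were higher in pool 2, with median signals of 47.8 in pool 1 and 66.2 in pool 2. Of the granulocyte genes, 1 of 12 was higher in pool 2, and of all genes 10722 of 18193 were. Low-iron pool 2 exceeded pool 1 for 3 of 7 tested adrenal genes, 2 of 2 pancreatic genes and 3 of 3 intestinal genes. Over all tested genes taken once each it did so for 8494 of 12992. Genes of the general secretory machinery, such as Calr and Pdia3, had a median of 0.00.

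Proximal tubule markers moved with the members that were low in both low-iron pools. All 20 of them, among them Slc34a1, the phosphate transporter of the brush border, and Lrp2, the endocytic receptor megalin, were below both control pools in both low-iron pools, although Hnf4g was too dim to be ordered. Their sums were 5973 and 5715 in control pools, 1066 in low-iron pool 1 and 2178 in pool 2, with 20, 20, 12 and 17 genes above background. By the signals as deposited, low-iron pool 2 exceeded pool 1 for 18 of the 20. The exceptions were Slc3a1 (138.4 in pool 1 and 116.6 in pool 2) and Slc22a8 (63.2 and 41.0). Apom, Kng1, Serpinf2 and Hp had the same order of pools as the sums, with controls highest and low-iron pool 1 lowest. Whether tubular cells contributed those signals was not tested.

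**Figure D5:**
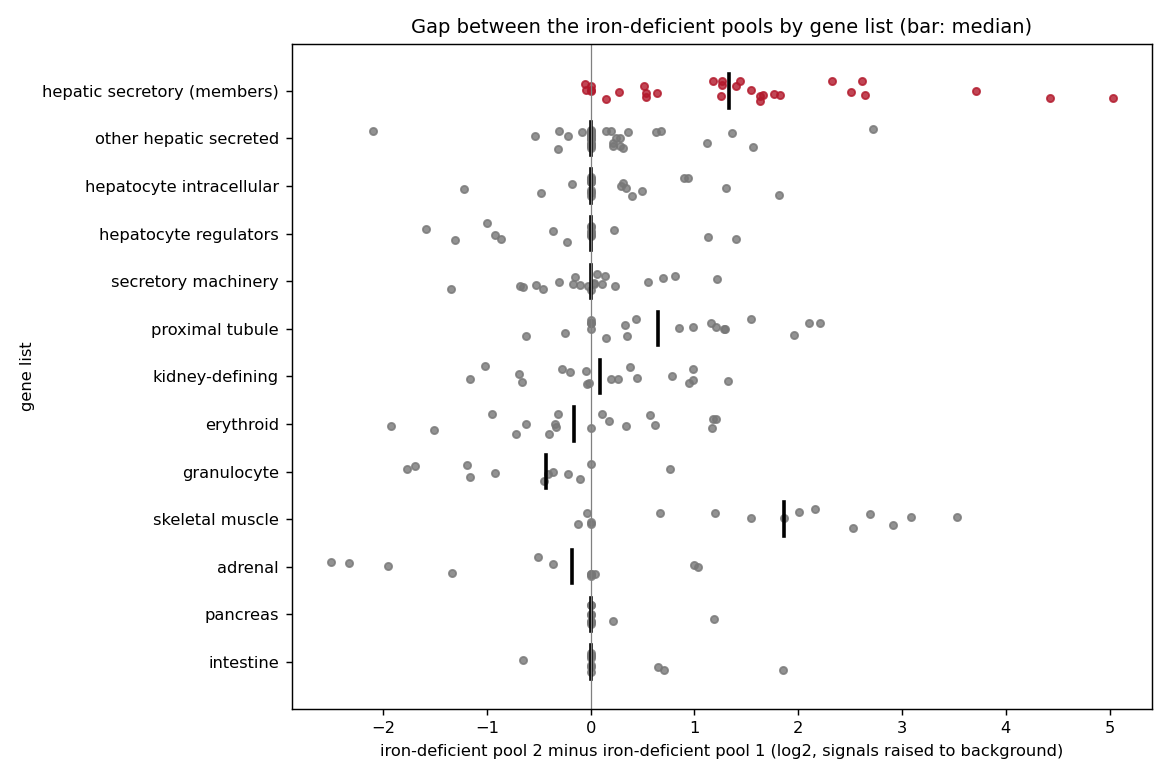
Log2 difference between iron-deficient pools 2 and 1, after signals under 14.4 were raised to it, for each gene (points) of each list, with the list median as a black bar. The members have a median of 1.33 and skeletal muscle 1.86, while the 0.00 medians of the other hepatic, pancreas and intestine lists are set by genes at background in both pools.

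Outside all lists, genes with the widest gaps between the low-iron pools were named by the same rule in each direction, among genes above background on both arrays. Higher in low-iron pool 2 were Tnfrsf12a, Pgam2, Fos, Myl4, Csrp3, Mpp2, Cracr2b, Actc1, Arhgef10l and Invs, by 5.62-fold to 7.71-fold. Measured the same way, Alb (21.5-fold) and Afp (13.1-fold) lay beyond that range and Apoa1 (6.24-fold) within it. Myl4, Csrp3, Actc1 and Pgam2 are genes of striated muscle. Higher in low-iron pool 1 were 4930447C04Rik, Lsm12, Snx27, Drc3, Acap1, Dtd2, 4930592I03Rik, Deptor, Eif2s3y and Whrn, and for the largest of these, 4930447C04Rik, the signal was 543.8 in pool 1 and 19.4 in pool 2.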

How the data were processed

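RNA was labelled with biotin and hybridised to Affymetrix arrays, per the labels' protocols. The authors deposited linear intensity values, 1 per probe set and array, and the values themselves show that each array was scaled to the same trimmed mean. RMA is named in the submitters' processing notes, yet the values are neither on a log scale nor of 1 distribution, so the summarising software is unknown here. Of 45101 probe sets, 64 controls were left out, zeros were set to 0.1, log2 was taken, and the lowest 40% by mean log2 signal (under 17.3) were left out, which leaves 27022. Differences between diets were fitted with limma 3.58.1 in R 4.3.3 (lmFit, eBayes, 2 residual degrees of freedom, prior 3.49, two-sided, Benjamini-Hochberg over all). The procedure was run on simulated data with equal spread on all 4 arrays, so that run does not cover an array that stands apart. Named are all members, and from the other lists genes by smallest p or highest signal, with others chosen after their values were seen (Asgr1, Mttp, Cps1, Otc, Tat, Cyp7a1, Cyp2e1, Arg1, Tdo2, Foxa2 and Onecut1). Members and lists were chosen with earlier results of these data known. No set test was run. An "at least" fold divides the brighter signal by the background of the dim array.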

Additional observations from a re-analysis of the deposited data

How the results depend on the processing

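With 0 of 27022 probe sets past the adjusted threshold, the count was 201 after median centring, 8 with 1 probe set per gene, and 0 to 75 when 1 pool was left out (75 without control pool 1, 31 without control pool 2). It stayed at 0 under no filter, the stricter filter, quantile normalization, an offset of 16, an intensity trend, robust priors, array weights, an adjusted p of 0.10 and signals raised to background. Members past the threshold numbered 0, with 1 after median centring (Serpinf2, -2.35, limma adjusted p = 0.00864) and 0 with any pool left out. With the pool number as a replicate block these counts were 479 probe sets and 5 members (Serpinf2, Ttr, Apom, Apoa1 and Kng1, limma adjusted p of 0.00014 to 0.0429). Equal pool numbers deviated together at 0.357 across tested probe sets, but the labels do not pair the pools. After median centring, with a replicate block or without a control pool, the prior degrees of freedom were infinite, against 3.49 in the main fit. Every probe set then took 1 common variance, so adjusted p from those fits hold no spread of the gene's own. How far that moved each count was not tested.

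The members' median diet difference of 0.11 was -1.59 under a filter removing the lowest 60%, which kept 7 members, and -1.09 to 0.63 with 1 pool left out (-0.21 without control pool 2). Their median between iron-deficient pools 2 and 1, 1.73 over tested members, was 1.96 after median centring, 1.41 with an offset of 16, 2.57 over all 30 without a filter, 1.33 over all 30 with signals raised to background (added after the data were seen) and 1.45 over all probe sets of each gene. Between control pools 2 and 1 it was -0.05, and 0.18 after quantile normalization, 0.38 after median centring and -0.33 without a filter. Diet differences of single genes changed sign when 1 pool was left out, ranging from -1.12 to 3.30 for Alb, -3.19 to 0.53 for Afp, -4.53 to 0.73 for Ttr, -1.31 to 1.94 for Rbp4, -0.21 to 1.06 for Ambp, -0.98 to 1.53 for Apoa2, -1.12 to 1.25 for Fga, -1.06 to 0.21 for Fgb, -0.15 to 0.73 for Serpind1 and -0.10 to 0.43 for Itih2. Fga also turned to -0.071 after quantile normalization. Serpinf2, Apom, Kng1 and Hp stayed below 0 and Serpinc1 and Apoa1 above 0 in every such fit. Signals under background bear no order.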
